A study of Mus musculus with 2 samples.

Results

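The genes described here were 32 members of the forkhead family, chosen as the protein-coding genes of mouse chromosomes 1 to 19 whose symbol is Fox, a letter and a number. Foxa1, Foxa2, Foxf1, Foxj1, Foxo1, Foxo3, Foxp1, Foxp2 and Foxp4, several of them well known in lung, were left out by name. The 32 genes were taken from 20696 protein-coding genes of these chromosomes. What was measured is the position of EP300, a lysine acetyltransferase and coactivator that DNA-bound factors bring to enhancers and promoters, by chromatin immunoprecipitation with sequencing (ChIP-seq). The material was whole lung of B6NCrl mice on postnatal day 0, with an antibody to EP300, in 2 libraries of 1 group. They are numbered as biological replicates 1 and 2, yet a single donor and a single biosample are recorded for both, and differences between them may therefore be technical. No sex is recorded, and a possible control experiment named in the labels was not analysed here.

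Forkhead factors share a winged-helix domain that binds short sequences built around TGTTTAC, and several of them can bind DNA that is packed in nucleosomes. In the lung, family members act in the airway and alveolar epithelium, in the mesenchyme and in vessels, while other members are best known from brain, eye, thyroid, thymus, ovary or early embryo. The data describe where EP300 lay near the genes that encode these factors. They measure neither the factors' own binding nor the level of their RNA.

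Each peak was given to the nearest protein-coding start site within 100 kb of its summit, the base of highest signal. This rule records proximity and is not a measured link between a peak and a gene. The peaks are those of the authors' optimal set, which rests on the irreproducible discovery rate (IDR), a measure of how well ranks are shared between replicates. Each peak carries the authors' signal value, a height with no stated scaling, which is used here to rank peaks within a list. A signal of the optimal set is that of the pooled libraries and lies on another scale than the signal of a single library.

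The 32 genes received 45 peaks, and 14 of them, or 43.8%, had at least 1 peak, against 48.4% of all protein-coding genes. The share was near that of all genes. The stretch within 100 kb that lay nearest to a gene's start sites had a median of 87.5 kb for the 32 genes and 45.8 kb over all genes. Whole lung mixes cell types, and a strong signal in few cells cannot be told apart from a weak one in many. The mean was 1.41 ± 2.91 peaks per gene (SD over the 32 genes) beside 1.71 ± 3.28 over all genes, and the median was 0 in both. In each library alone, taken as its strongest 43988 peaks to equal the size of the optimal set, the genes received 40 peaks in replicate 1 and 47 in replicate 2 (mean 43.5 ± 4.95, SD, n = 2). The number of genes with a peak was 13 in replicate 1 and 15 in replicate 2 (14 ± 1.41, SD, n = 2). With 1 group and 2 libraries no test between conditions exists, and all comparisons with other genes are descriptions. Within 10 kb of a start the 32 genes had 11 peaks at 8 genes, and with the nearest start of any gene 19 peaks at 8 genes. The share of all genes was not computed under these 2 settings, so these counts have no background beside them.

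The sequences under the strongest peaks of 4 of the 5 genes with most peaks show the DNA on which the counts rest. They are the central 100 bases around the summit, plus strand, 5′ to 3′, genome build mm10, and none overlaps an exon. Capitals mark matches to a short list of consensus sequences searched on both strands. A forkhead (FOX) match was TGTTTAC or the related form TATTTAC, and an AP-1 match (bound by Fos and Jun proteins) was TGACTCA. The consensus of TEAD factors, which act in the Hippo pathway, was GGAATG, and that of the ETS family was CAGGAAG. For NKX2 homeodomain factors it was CACTTGA, for the zinc finger factors of the GATA family AGATAA, for STAT factors TTCNNGGAA and for the zinc finger factors of the KLF family GGGNGTGG. The glucocorticoid response element and the CTCF consensus were also searched.
Foxb1 strongest peak, chr9:69780182-69780281: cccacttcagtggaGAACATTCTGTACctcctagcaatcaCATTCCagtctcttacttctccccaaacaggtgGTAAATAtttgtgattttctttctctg
Foxl1 strongest peak, chr8:121201028-121201127: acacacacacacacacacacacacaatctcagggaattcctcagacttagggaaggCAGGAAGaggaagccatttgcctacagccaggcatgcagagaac
Foxn3 strongest peak, chr12:99340889-99340988: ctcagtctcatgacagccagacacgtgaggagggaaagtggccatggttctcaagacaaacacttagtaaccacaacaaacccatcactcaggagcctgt
Foxk1 strongest peak, chr5:142425204-142425303: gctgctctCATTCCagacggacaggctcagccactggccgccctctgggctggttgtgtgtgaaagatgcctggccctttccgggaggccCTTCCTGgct

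The Foxb1 window held a glucocorticoid response element, then TEAD and FOX matches in their reverse-strand form. The Foxk1 window held a TEAD and an ETS match, the Foxl1 window an ETS match, and the Foxn3 window none of the letters searched. ETS, STAT and TEAD all contain GGAA and can overlap. A match is a description of the letters and not a measured site.

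Further peaks with a FOX match or a glucocorticoid response element are shown because FOX is the consensus of the family itself and because the response element was matched in so few peaks. These peaks were chosen after their values were seen.
Foxj2 peak at 9.23 kb, chr6:122810636-122810735: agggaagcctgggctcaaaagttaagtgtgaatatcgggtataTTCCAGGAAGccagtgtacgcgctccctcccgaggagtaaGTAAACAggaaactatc
Foxq1 peak at 49.1 kb, chr13:31506942-31507041: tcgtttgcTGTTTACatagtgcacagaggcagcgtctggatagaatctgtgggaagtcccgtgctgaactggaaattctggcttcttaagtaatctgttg
Foxk1 peak at 27.1 kb, chr5:142374385-142374484: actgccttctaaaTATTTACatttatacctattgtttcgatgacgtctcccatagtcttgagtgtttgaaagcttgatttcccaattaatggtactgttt
Foxn3 peak at 50.7 kb, chr12:99342363-99342462: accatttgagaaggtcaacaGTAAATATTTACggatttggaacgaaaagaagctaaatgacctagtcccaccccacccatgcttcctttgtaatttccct
Foxn3 peak at 94.0 kb, chr12:99298985-99299084: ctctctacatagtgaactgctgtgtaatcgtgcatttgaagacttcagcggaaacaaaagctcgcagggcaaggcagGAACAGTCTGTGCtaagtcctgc

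In the Foxj2 window an ETS and a STAT match overlap upstream of the FOX match. In the first Foxn3 window the capitals form a stretch that reads as a FOX match on either strand, and in the second they mark the glucocorticoid response element. Across the 45 peaks, FOX was matched in 5 (11.1%, exact 95% interval 3.71 to 24.1%), 1 each near Foxb1, Foxj2, Foxk1, Foxq1 and Foxn3. Over all 35407 peaks assigned to any gene of these chromosomes, 7.56% matched. The glucocorticoid response element was matched in 2 peaks (4.44%, 0.543 to 15.1%), near Foxb1 and Foxn3, beside 2.15% of all assigned peaks. Both shares of all peaks lay inside the intervals of the forkhead genes' peaks. The FOX share of the forkhead genes' peaks fell to 6.38% without replicate 1 and 7.5% without replicate 2, where all assigned peaks had 7.41% and 7.52%. In whole peaks it was 22.2% beside 18.2%.

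The other consensus sequences were also matched in few peaks. ETS was matched in 8 of the 45 peaks (17.8%, 8.002 to 32.1%) beside 10.4% of all assigned peaks, AP-1 in 4 (8.89%) beside 5.90%, and KLF in 3 (6.67%) beside 4.87%. TEAD was matched in 5 peaks (11.1%) beside 11.4%, GATA in 2 (4.44%) beside 7.94%, STAT in 2 (4.44%) beside 3.98%, and NKX2 in 1 (2.22%) beside 3.002%. CTCF was matched in 0 of 45 (exact interval up to 7.87%, or 6.67% by the limit of 3 counts), beside 0.508% of all assigned peaks. The background share lay inside the interval for each of these. The intervals cover counting error alone and treat the peaks as independent, although 10 of the 45 overlapped another peak of the set. In all, 21 peaks held at least 1 match and 24 held none.

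**Figure D1:**
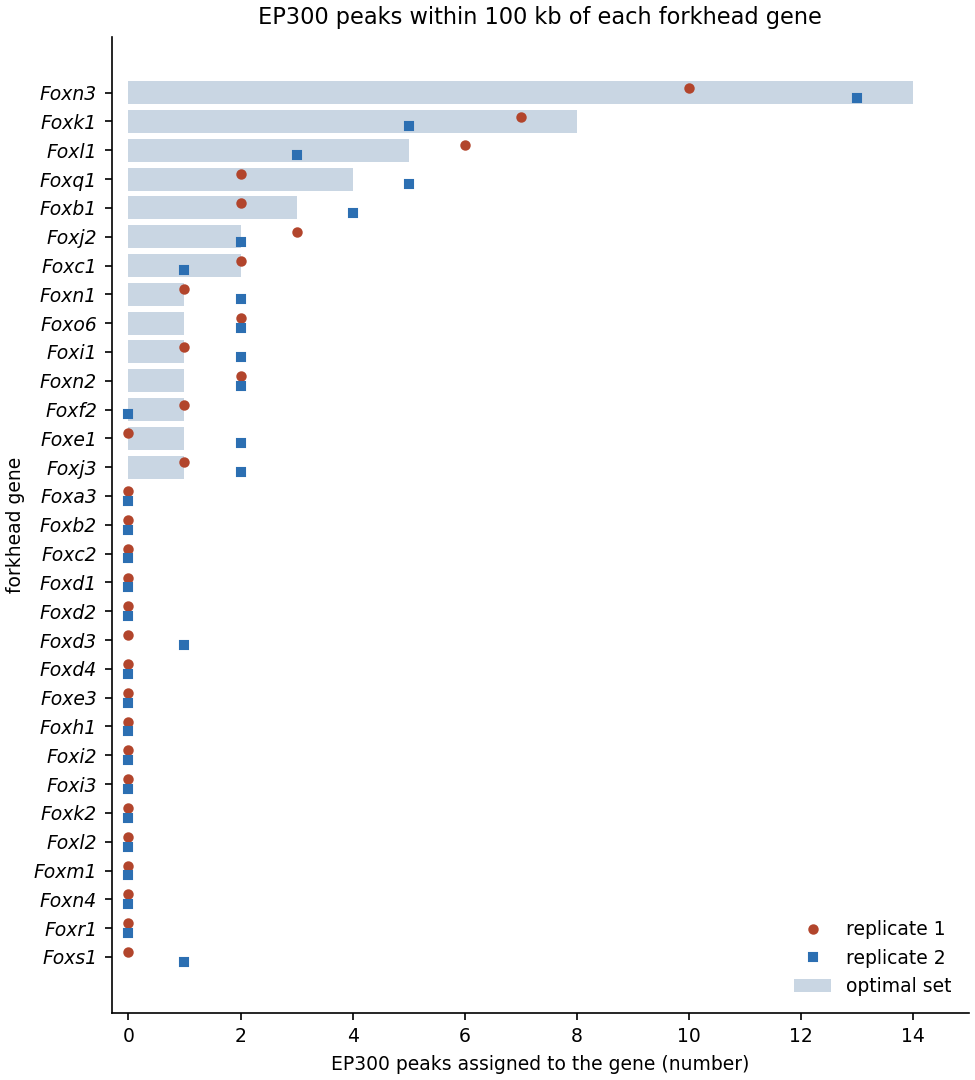
Number of EP300 peaks (horizontal axis) assigned to each of 31 forkhead genes in the optimal set and in the strongest peaks of each library. Foxn3 leads with 14 peaks in the optimal set, 10 in replicate 1 and 13 in replicate 2, and 17 of the genes drawn have none in the optimal set.

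The broadly expressed and cell cycle genes held most of the peaks: 27 of 45. Of these 8 genes 6 had at least 1 (75.0%, against 48.4% of all genes), and the median was 1 peak per gene. The 6 include Foxo6, which is studied mainly in brain and could also be placed with the nervous system genes. Foxn3 and Foxk1 alone held 22 peaks, or 48.9% of those of the 32 genes. With overlapping peaks merged the 32 genes had 40 peaks, Foxn3 12 and Foxk1 7. Foxn3 encodes a transcriptional repressor linked to the DNA damage checkpoint, and Foxk1 a repressor of autophagy genes. Foxj2, Foxj3, Foxn2 and Foxo6 had 1 or 2 peaks each. Foxm1, which drives genes of mitosis, and Foxk2, the close relative of Foxk1, had none.

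Foxn3 (chr12:99190078-99563582) had 14 peaks in the optimal set, 10 in replicate 1 and 13 in replicate 2. Of all protein-coding genes, 272 (1.31%) had more in the optimal set. All 14 peaks lay in introns of the gene. Its strongest peak, at chr12:99340727-99341150 and 52.1 kb downstream of the nearest start, had a signal of 98.5, with 59.0 in replicate 1 and 41.5 in replicate 2. The next had a signal of 84.9 and lay 80.1 kb upstream of the first start used, but still inside the annotated gene. A promoter peak, meaning a summit within 1 kb of a start, had a signal of 83.3 at 266 bp, with 45.6 and 42.4 in the libraries. The weakest of the 14 had a signal of 13.8.

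The Foxn3 count turned on the start sites used: it was 5 with the most upstream start alone, 4 when a peak was given to the nearest start of any gene, noncoding ones included, and 2 within 10 kb. With the nearest start of any gene Foxk1 had 8, Foxl1 had 1, Foxq1 2 and Foxn1 1, and Foxj2 and Foxc1 had 0.

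The distance limit cut the Foxn3 gene. It is 373.5 kb long, the longest of the 32, with 3 start sites in the annotation used, and a further 6 optimal peaks in its introns lay more than 100 kb from any of them. These included its 2 strongest, with signals of 113 and 112 at 130 and 125 kb. With them the gene body held 20 peaks, a number that 113 genes reached or passed. Per length this was 5.35 peaks per 100 kb, beside a median of 1.45 over the 2369 genes of 100 kb or more, of which 336 (14.2%) were as dense or denser. Just inside the limit lay Foxn3 peaks at 98.6 kb (signal 24.7) and 94.0 kb (57.8), and just outside it Foxn3 peaks at 108 kb (36.2) and 110 kb (27.5).

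**Figure D2:**
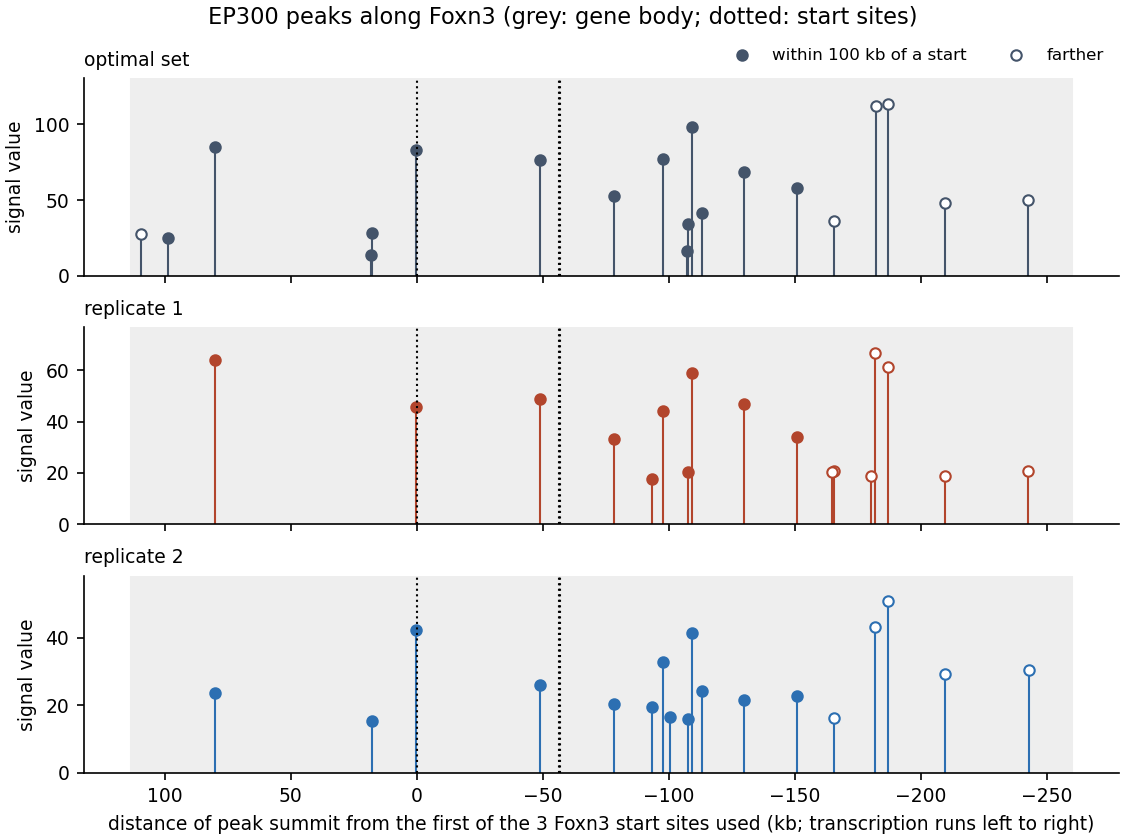
EP300 peaks along Foxn3 in the optimal set and in the strongest peaks of each library, as signal value (vertical axis, separate scale per list) against distance in kb from the first start site used. Filled points are assigned peaks, open points lie more than 100 kb from any of the 3 start sites (dotted, the second and the third nearly coincide), and the grey band is the gene body with the highest 2 points, 113 and 112, both open.

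Foxk1 (chr5:142401497-142462011) had 8 peaks, with 7 in replicate 1 and 5 in replicate 2, and 863 genes (4.17%) had more. In each library Foxk1 had fewer peaks than Foxn3 and more than Foxl1, next in order with 6 in replicate 1 and 3 in replicate 2. Across the 2 libraries the ranges of Foxk1 and Foxl1 overlapped. This order was not tested. In the optimal set 5 of the Foxk1 peaks lay 6.39 to 37.1 kb upstream, outside any protein-coding gene. The other 3 lay in its introns at 14.8, 23.8 and 27.4 kb, with signals of 45.0, 74.4 and 59.2. The strongest, at chr5:142425042-142425465, had 28.4 in replicate 1 and 33.4 in replicate 2. In replicate 1 the peak at 27.4 kb was higher, at 41.9. The upstream peaks at 6.39 and 6.62 kb (signals of 17.2 and 27.0) overlapped each other, and neither had a replicate 2 summit within 100 bp. The Foxk1 body of 60.5 kb held 4 optimal peaks, 1 of them nearer to the start of another gene. Per length this was 6.61 peaks per 100 kb, beside 5.35 for the Foxn3 body.

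Foxj2, a broadly expressed activator, had 2 overlapping peaks, with 3 in replicate 1 and 2 in replicate 2. The stronger, at chr6:122810474-122810897 and 9.23 kb upstream, had a signal of 136 and only the strongest peaks of Foxb1 and Foxq1 were higher among the 45. Its counterpart in replicate 1 had 82.6, and the nearest replicate 2 summit, 112 bp away, had 56.5. Foxo6, an insulin-regulated factor studied mainly in brain, had 1 peak with a signal of 61.3 at 39.7 kb, and Foxn2 1 with 40.4 at 26.7 kb. The Foxj3 peak had a signal of 27.5 at 734 bp. A stronger peak, of 89.1, lay 471 bp from a Foxj3 start but nearer, at 421 bp, to the start of Frg2f1, and was given to the latter.

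Of the 6 mesenchyme and vessel genes 3 had a peak, against 48.4% of all genes. Foxl1, Foxc1 and Foxf2 had 8 peaks together, and Foxc2, Foxd1 and Foxs1 had none. Foxl1 marks mesenchymal cells beneath epithelium, best described in gut. Foxl1 had 5 peaks, with 6 in replicate 1 and 3 in replicate 2. Its strongest, at chr8:121200866-121201289, lay 73.1 kb downstream within the long noncoding RNA gene 5033426O07Rik and had a signal of 117, with 73.2 in replicate 1 and 40.9 in replicate 2. The second, of 73.1, was a promoter peak at 371 bp, with 39.97 and 32.7 in the libraries. The other 3 had signals of 35.8 to 37.4 at 24.6 to 59.9 kb. These 5 peaks also lay within Gm20388, a predicted gene model that spans 4.43 Mb.

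Foxc1, needed for vessels, meninges and the front of the eye, had 2 peaks, with 2 in replicate 1 and 1 in replicate 2. The stronger, at chr13:31797966-31798389 and 8.46 kb upstream under the antisense RNA gene Gm11379, had a signal of 91.8, with 50.8 in replicate 1 and 40.6 in replicate 2. The weaker had 41.2 and lay in an intron of the neighbouring gene Gmds. Foxf2, a mesenchymal relative of Foxf1, had 1 peak with a signal of 30.5 at 6.92 kb, and had 1 peak in replicate 1 and 0 in replicate 2. The replicate 1 count came from another peak, with a signal of 17.2, while the optimal peak itself had 16.5 there and fell outside the strongest list. Foxc2, which shapes lymphatic valves, Foxd1, a stromal progenitor factor, and Foxs1 had 0 in the optimal set.

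Of the 8 epithelial genes 4 had a peak, against 48.4% of all genes. Foxq1, Foxn1, Foxi1 and Foxe1 had 7 peaks together. Foxq1, a factor of stomach, hair follicle and other epithelia, had 4 peaks, with 2 in replicate 1 and 5 in replicate 2. Its strongest, 8.42 kb upstream, had a signal of 207, second of the 45 and rank 968 in the whole optimal set. It had 114 in replicate 1 and 90.9 in replicate 2. The other 3 were weaker, with signals of 34.6 to 51.9 at 49.1 to 87.8 kb upstream. In replicate 1, 2 of those 3 fell outside the strongest peaks, and replicate 2 had a further peak at -37.3 kb with a signal of 37.5 that is not in the optimal set.

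Foxn1, the thymus epithelium and hair factor lost in nude mice, had 1 peak in its own intron at chr11:78370364-78370787, with a signal of 80.2, 44.8 in replicate 1 and 35.8 in replicate 2. Its count was 1 in replicate 1 and 2 in replicate 2. Foxi1, which specifies ionocytes of airway and kidney, had 1 with a signal of 51.3 at 26.2 kb. This peak ranked 15701 in replicate 2 (signal 27.1) and 38995 in replicate 1 (signal 18.7). Foxe1, a thyroid factor, had 1 with a signal of 28.7 at 38.8 kb, and this peak was among the strongest of replicate 2 but not of replicate 1. Foxa3, a liver and gut endoderm factor, Foxi2, Foxi3 and Foxn4 had 0.

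Of the 10 genes known from nervous system, eye, early embryo and germ line, Foxb1 was the single one with peaks in the optimal set, against 48.4% of all genes. In replicate 2 Foxd3 had 1 peak as well. The sequence these genes could draw peaks from ran from 5.52 kb for Foxh1 to 200 kb for Foxb1, and the count takes no account of it. Whether the list differs from other genes was not tested. It leaves out Foxo6, which is studied mainly in brain and had 1 peak. Foxb1 is a factor of the diencephalon. It had 3 peaks, with 2 in replicate 1 and 4 in replicate 2. Its strongest, at chr9:69780133-69780268 and 19.3 kb upstream in the antisense RNA gene B230323A14Rik, had a signal of 223, the highest of the 45, and rank 754 in the whole optimal set. It ranked 797 in replicate 1 (signal 123) and 737 in replicate 2 (101). The other 2, of 72.0 and 23.6, overlapped each other 47.4 to 47.7 kb downstream. With the nearest start of any gene, noncoding ones included, Foxb1 had 0. Foxb2, Foxd2, Foxd3, Foxd4, Foxe3 of lens, Foxh1 of Nodal signalling, Foxl2 of ovary and Foxr1 had 0.

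**Figure D3:**
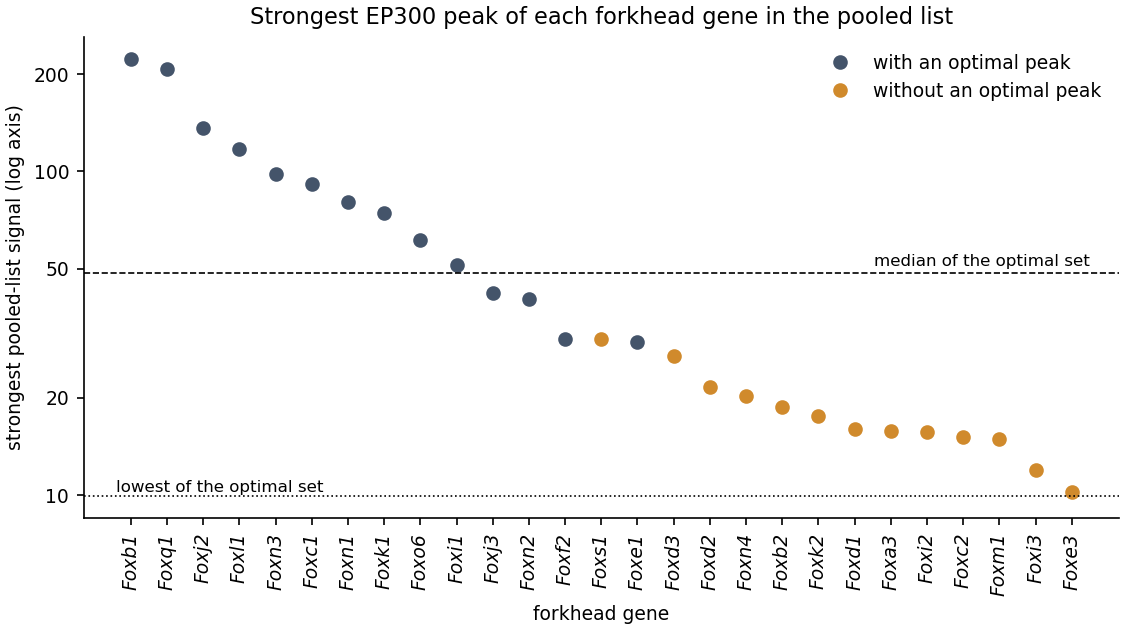
Signal value (log axis) of the strongest peak in the pooled list for 27 forkhead genes that have one, coloured by whether the gene has an optimal peak, with lines at the median (48.5) and the lowest (9.91) signal of the optimal set. The genes drawn without an optimal peak lie between 10.2 and 30.3, and Foxb1 and Foxq1 lead at 223 and 207.

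The longer pooled list is not filtered by IDR. In it, 14 of the 18 genes without an optimal peak had at least 1 peak, and so had 73.0% of all genes without an optimal peak. The strongest per gene had signals of 10.2 to 30.3 with a median of 15.9. The optimal set has a lowest signal of 9.91 and a median of 48.5. Foxs1 (30.3 at 7.45 kb) and Foxd3 (26.8 at 94.7 kb) were the highest of them, and both had 1 peak among the strongest of replicate 2 and 0 in replicate 1. Foxm1 had 14.9 within 1 kb of its start. Foxd4, Foxh1, Foxl2 and Foxr1 had no peak in the pooled list.

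How much sequence a gene could draw peaks from varied widely. Its territory, the stretch nearer to its start sites than to any other and within 100 kb, had a median of 115 kb for the 14 genes with a peak and 47.6 kb for the 18 without, beside 45.8 kb over all genes. Foxh1 had 5.52 kb, Foxm1 7.66 kb and Foxc2 9.77 kb. Per 100 kb of territory the 32 genes had 1.64 peaks and all genes 2.47. Gene length differed likewise, with medians of 13.1 kb with a peak, 3.29 kb without and 17.6 kb over all genes. A single exon was annotated in 4 of the 14 genes with a peak and in 9 of the 18 without, beside 5.68% of all genes.

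Most of the 45 peaks lay away from start sites: 34 (75.6%, exact 95% interval 60.5 to 87.1%) lay over 10 kb away, beside 61.3% of all assigned peaks, and the median distance was 26.7 kb beside 16.6 kb. Without Foxn3, 22 of 31 (71.0%) lay over 10 kb away. Promoter peaks made up 3 of the 45 (6.67%, 1.40 to 18.3%) beside 15.01% of all assigned peaks. Both shares of all assigned peaks lay inside these intervals, with 61.3% close to the lower limit of 60.5%. The intervals treat the peaks as independent, although 14 of the 45 were of Foxn3 and 10 overlapped another peak of the set. By gene, 3 of the 32 (9.38%), Foxl1, Foxn3 and Foxj3, had a promoter peak, against 21.2% of all genes, and 1 had one with the most upstream start alone. For 5 or more peaks the numbers were 3 of 32, Foxn3, Foxk1 and Foxl1, against 11.2%. This count was 1 with the nearest start of any gene, 1 among the stronger 50% of peaks and 0 within 10 kb. Shares of all genes were not computed for these settings. The median signal was 51.3, with a range of 13.8 to 223, beside 48.5 over all assigned peaks, and 3 of the 45 were in the strongest 10% of the optimal set.

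By place, 19 of the 45 summits lay in introns of the gene they were assigned to, 5 in Gm20388 alone, 1 in Gmds and 20 in no protein-coding gene. None lay in coding sequence or an untranslated region. A noncoding RNA gene covered 7 summits, and 22 lay upstream of the start. In the authors' stricter conservative set 33 of the 45 were found with the same coordinates. Between the whole sets, of 43988 optimal and 42473 conservative peaks, 35218 coordinates were shared. Coordinates can differ between the sets, and the conservative set gave 39 peaks at the same 14 genes.

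The optimal set derives from these 2 libraries, so finding its peaks again in their full lists is no independent support. A summit within 100 bp was listed for 44 of the 45 peaks in replicate 1 and for 40 in replicate 2, and for 39 in both, in lists of 300000 peaks each. Among the strongest 43988 of each library the numbers were 32, 30 and 23, so that 51.1% were in both, beside 62.3% of all assigned peaks. Where both libraries had a value, the log2 ratio of replicate 1 to replicate 2 had a median of 0.34 and ran from -1.01 to 1.45, and it was above 0 for 29 peaks. The scale of the libraries was not stated, so the offset from 0 cannot be read as a difference in EP300.

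**Figure D4:**
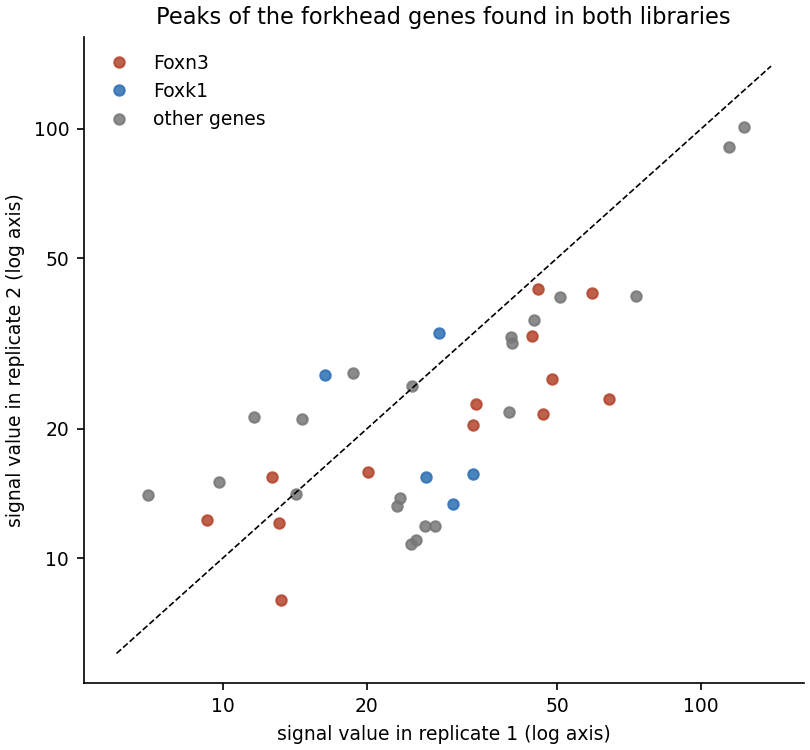
Signal value of each forkhead gene peak in replicate 1 (horizontal) and in replicate 2 (vertical), both log axes, for the 39 peaks with a summit within 100 bp in both libraries, with a dashed line of equal values. The 2 strongest points, of Foxb1 and Foxq1, are the highest in both libraries, and 29 points lie below the line.

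On chromosome 13, Foxq1, Foxf2 and Foxc1 follow each other within 250.5 kb, and 7 peaks were assigned to them. Their starts lie at 0, 69.7 and 250.5 kb, counted from Foxq1. A further peak of 99.2, at 22.5 kb between Foxq1 and Foxf2, was given to the predicted gene A530084C06Rik, whose start lies 3.20 kb from that of Foxq1. On chromosome 8, Foxf1, Foxc2 and Foxl1 lie within 43.6 kb, with Mthfsd between Foxf1 and Foxc2. Foxf1, a mesenchymal factor of lung left out of the 32 genes, had 7 peaks, Foxl1 5, and Foxc2 and Mthfsd 0. On chromosome 4, Foxd2 and Foxe3 lie 17.1 kb apart and both had 0.

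**Figure D5:**
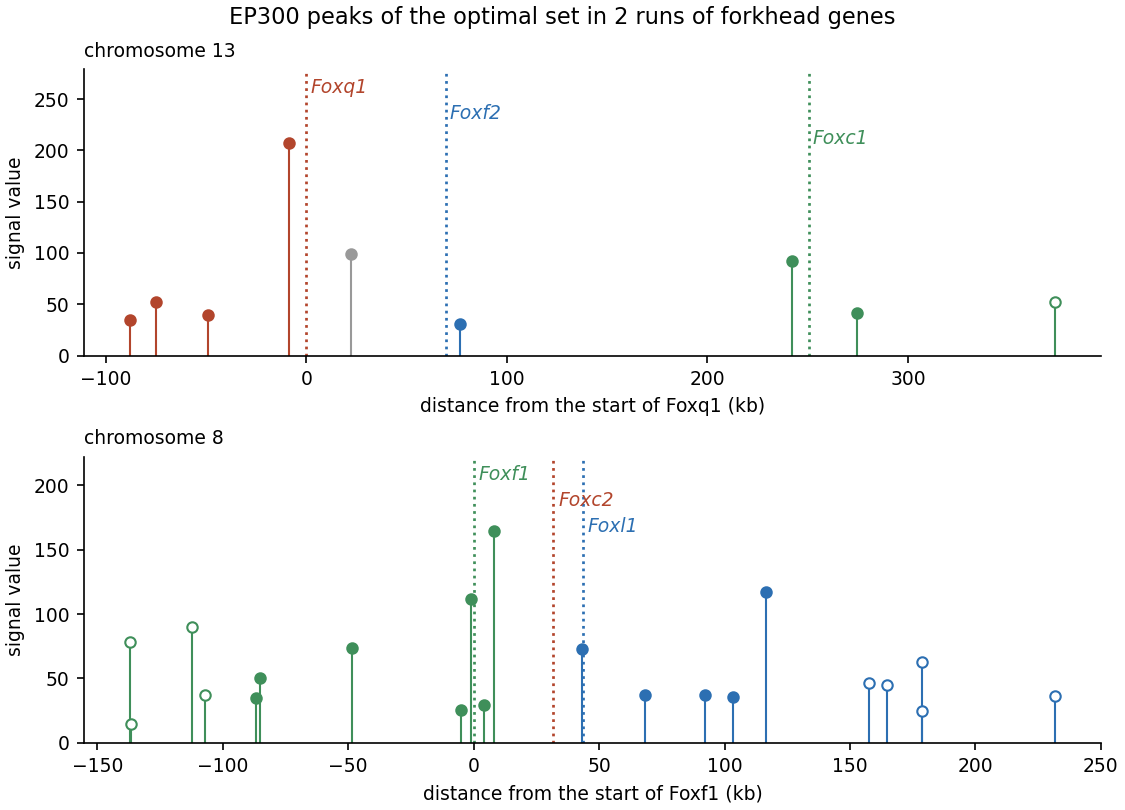
Signal value (vertical) of optimal EP300 peaks against distance in kb from the start of Foxq1 (chromosome 13) or Foxf1 (chromosome 8), in the colour of the nearest forkhead gene, with grey for the peak given to A530084C06Rik and open points for peaks more than 100 kb from the nearest start. Dotted lines are start sites, and no peak carries the colour of Foxc2.

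A wider distance limit would have added to a few of the genes. A total of 20 optimal peaks lay more than 100 kb from the nearest start when that start belonged to 1 of the 32 genes: 6 for Foxn3, 5 for Foxl1, 4 for Foxq1, 3 for Foxn2 and 2 for Foxc1. Those of Foxn2 lay 183 to 185 kb upstream with signals of 53.5 to 75.6, above its assigned peak of 40.4.

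The 9 forkhead genes left out had 88 peaks, with a peak in 7 of them (77.8%, against 48.4% of all genes): Foxp1 35, Foxa2 17, Foxo3 14, Foxf1 7, Foxo1 7, Foxp4 6 and Foxa1 2, and Foxj1 and Foxp2 had 0. Foxn3 had as many as Foxo3, and each of the other genes described here had fewer. Foxo3 had 13 in each library, beside 10 and 13 for Foxn3. The difference between the sets of genes was not tested.

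Of 12 genes whose products work with members of the family, 9 had a peak against 48.4% of all genes, 36 peaks in all. In the libraries alone 9 had one in replicate 1 and 6 in replicate 2. Smad3, a receptor-activated transducer of TGF-beta signals, had 14 (11 in replicate 1 and 15 in replicate 2). Asxl1, of the BAP1 complex that binds FOXK proteins, had 9 (9 and 5), and Sin3a, a corepressor scaffold, had 3 (2 and 3). Lin9 and Lin52, of the complex through which FOXM1 acts on cell cycle genes, and Smad2 and Smad4 had 2 each. Lin37 and Men1 had 1, and Lin54, Mybl2 and Bap1 had 0. The tissue label was checked on marker genes, against the 48.4% of all genes with a peak. All 7 of 7 lung epithelial and 4 of 4 endothelial genes had a peak, and of 4 genes of other organs Gad2 alone had any (4 peaks). By count Gad2 equalled Abca3 (4) and passed Sftpc (3), Sftpa1 (2) and Ager (2), while Nkx2-1 had 7, Sftpb 18 and Hopx 18. The endothelial genes had 10 to 15. Territory differed widely, with 176 kb for Gad2 and 5.32 kb for Sftpc.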

How the data were processed

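EP300 ChIP-seq peak lists of 2 newborn lung libraries were used. Per the labels and the deposited notes, alignment was to mm10, peak calling was done by the authors for replicate 1, for replicate 2 and for the pool, and conservative and optimal IDR sets were derived from these lists. Each list also derives from a further file that was not named. Not given in the sources used here were the aligner, the caller and the version of IDR. The value used from the lists is the signal the authors deposited for each peak, and its scaling was not stated. The lists held no read counts, so depth is unknown.

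The optimal set held 43988 peaks, 43972 of them on chromosomes, and the conservative set 42473. The pooled list and each library's list held 300000, and single libraries were represented by their strongest 43988. The peak coordinates fitted the chromosome lengths of GRCm38.p6. Start sites were those of protein-coding transcripts in the GENCODE vM21 basic set (21827 symbols). The planned wording was every annotated start; the basic set was taken as main after the counts under several annotations had been seen, because it matched the earlier processing of these data, and the comprehensive starts became an alternative. Promoter peaks were those with a summit at most 1 kb from a start. Peaks of 2 lists were paired by nearest summit within 100 bp. Consensus sequences were searched in the central 100 bp on both strands of the RefSeq GRCm38.p6 genome, from which the printed sequences were read. Shares carry exact Clopper-Pearson 95% intervals.

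The genes, role lists and partner and marker lists were chosen with earlier results of these data known. Values of 1 gene and the sequence of 1 peak are not reported here singly; totals include them. By rule, every other gene is named with its count, the 8 with most peaks are described with their strongest peak, and the 5 strongest peaks, neighbouring forkhead genes and the 4 partner genes with most peaks are named. The fourth place among partners was a tie, so all tied genes are given. Frg2f1, the other neighbouring or overlapping genes and the remaining partners are not covered by it and were picked with their values in view. No test was run, since 1 group gives no contrast. Alternatives covered the set, distance, start sites, promoter width, sequence window, merging and each library alone. The code was tested on simulated data. Python 3.11.15, numpy 2.4.6, pandas 2.3.3, scipy 1.17.1, pysam 0.24.0 and matplotlib 3.10.9 were used.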

Additional observations from a re-analysis of the deposited data

How the results depend on the processing

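Results were recomputed under each alternative with 1 choice changed at a time. The 45 peaks of the forkhead genes became 11 within 10 kb of a start, 23 among the stronger 50% of optimal peaks and 19 with the nearest start of any gene. The 14 genes with a peak became 8 within 10 kb and 8 with any gene's start. The 3 genes with 5 or more peaks became 0 within 10 kb, 1 among the stronger peaks and 1 with any gene's start, and the 3 with a promoter peak became 1 with the most upstream start alone. Shares of all genes were not computed under these alternatives, so the counts of genes cannot be set beside a background. Within 10 kb the epithelial genes with a peak fell from 4 to 1 and the neural, eye, early embryo and germ line genes from 1 to 0. With any gene's start the latter were 0 and the mesenchyme and vessel genes went from 3 to 1. The partner genes went from 9 to 5 among the stronger peaks. The median signal of 51.3 was 76.2 among the stronger peaks and, on the libraries' own scales, 21.9 to 29.4 with 1 library left out. The share of peaks over 10 kb away (75.6%) was 79.5% in the conservative set, 77.5% with overlapping peaks merged, 69.6% among the stronger peaks, 68.0% with comprehensive transcript starts, an alternative chosen after seeing the data, and 77.5 to 78.7% with 1 library left out. The FOX share (11.1%) was 13.3% in the central 200 bp, 22.2% in whole peaks, 12.8% in the conservative set, 12.5% with merged peaks, 8.70% among the stronger peaks, 8.0% with comprehensive starts and 6.38 to 7.5% with 1 library left out. The share with a glucocorticoid response element (4.44%) was 5.13% in the conservative set, 5.00% with merged peaks, 8.70% among the stronger peaks and 4.26 to 5.00% with 1 library left out. The neural list had 1 to 2 genes with 1 library left out. Foxn3 had 20 peaks with comprehensive starts and 6 within 50 kb. Without replicate 1, Foxk1 had 5, Foxl1 3, Foxc1 1 and Foxn1 2, and without replicate 2, Foxq1 had 2. The cause of these changes was not tested. No paired analysis was possible because the libraries form 1 group. With no read counts, depth and its limits are unknown, whole lung mixes cell types, and no input or control signal was used here.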
